A study of Rattus norvegicus with 4 samples.

Results

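The nuclear-encoded genes of the mitochondrial respiratory chain and ATP synthase were taken as the protein-coding rows whose symbols name subunits of complexes I to IV, cytochrome c1 or ATP synthase. The symbol patterns matched 85 of 54532 rows of the count table, of which 22046 rows are protein-coding. By name, 36 rows belong to complex I, 4 to complex II, 9 to complex III, 18 to complex IV and 18 to ATP synthase. The complex IV rows include the muscle isoforms Cox6a2, Cox7a1 and Cox8b, which were kept apart from the other 15. Atp5o appears on 2 rows, so the 85 rows carry 84 symbols. The pattern leaves out Ndufab1, the acyl carrier protein of complex I, and takes in Cox7a2l and Atp5s, which are not core subunits of the complexes they are named for.

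The libraries come from ear skin of 2 SD (Sprague Dawley) rats, sampled on day 3 of treatment with adeno-associated virus (AAV). In each pair of values, rat 1 comes before rat 2. In both animals AAV-Fgf7 was given to 1 ear, labelled Fgf7 overexpression, and the opposite ear received a control AAV in tissue labelled wt, so each group holds 2 libraries and every library comes from a virus-injected ear. The sources used here give neither age nor sex nor the promoter that drives Fgf7 in the vector, and titles and design text disagree on which side was treated. Both AAV-Fgf7 samples are described by the same column name, so the rat of each AAV-Fgf7 library was read from the number in the column name. Library totals lay between 1299136 and 1601321 counts. CPM is the count scaled to the TMM-adjusted size of its library. Fgf7, the check of the labels, stood at 71.4 and 73.2 CPM with control virus, 321 and 989 CPM with AAV-Fgf7. The log2 difference of 3.18 (SE 0.54) had adjusted p-values of 0.9996 by edgeR and 3.47e-07 by DESeq2. Rows carry mouse gene identifiers although the animals are rats, and the step that placed rat reads on them is not stated in the labels.

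Complexes I and II pass electrons from NADH and succinate to ubiquinone, complex III passes them on to cytochrome c, and complex IV passes them to oxygen. Complexes I, III and IV pump protons out of the mitochondrial matrix, and ATP synthase lets them flow back to make ATP. Most subunits are encoded in the nucleus and a small set in mitochondrial DNA. Oxidative muscle fibres and brown fat are rich in these complexes, and striated muscle replaces some subunits of complex IV with isoforms of its own.

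Only a minority of the members could be measured. At least 1 count was found for 64 of the 85 rows (75.3%), against 52.4% of all protein-coding rows. The low-count filter was passed by 22 members (25.9%), against 26.6% of protein-coding rows. These were 8 rows of complex I, 4 of complex III, 4 of complex IV, 6 of ATP synthase and 0 of complex II. Another 42 rows had between 1 and 37 counts in the 4 libraries together, and 21 rows had 0. A count of 0 allows a level of up to 2.28 CPM in the library where the limit is highest, which covers counting error only. The gene models of the tested members had a median length of 2127.5 bases and those of the other members 1381 bases. Complex IV outside the muscle isoforms went the other way, with 866 bases for tested and 1131 for other rows. Over all protein-coding rows the medians were 5197 bases for tested and 2894 for other rows, so a gap in length is not particular to the members. Members that passed the filter are therefore a selected set of the complexes and do not stand for all subunits.

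**Figure D1:**
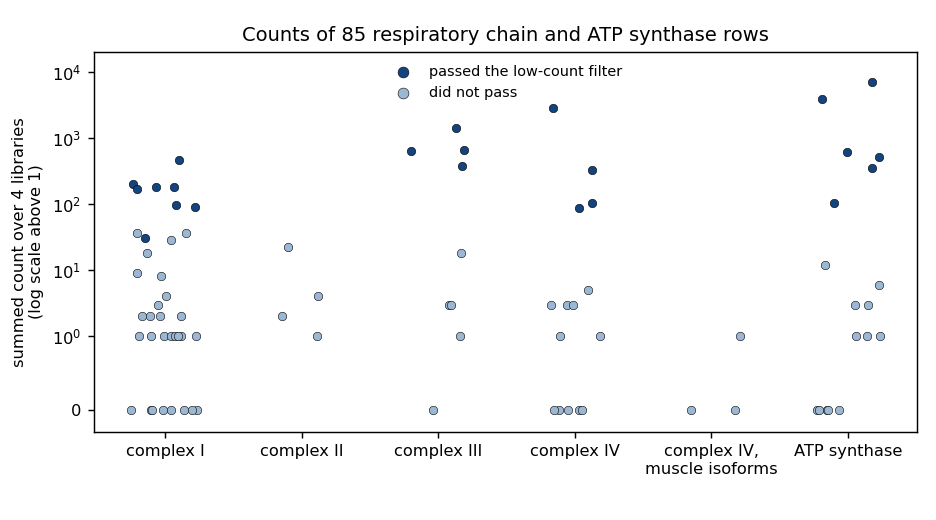
Each point is 1 of the 85 rows, placed by complex on the horizontal axis and by its count summed over the 4 libraries on the vertical axis (logarithmic above 1), with dark points for the 22 rows that passed the low-count filter. Complex II and the muscle isoforms of complex IV hold no dark point, and 21 rows lie at 0.

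Several widely expressed subunits were among the rows with almost no counts. Cox4i1, the widely expressed form of complex IV subunit 4, had counts of 1 and 0 with control virus, 0 and 2 with AAV-Fgf7. Cox6a1, the partner of Cox6a2 outside striated muscle, had 0, 1, 0 and 2 counts in the same order. Both Atp5o rows, for a subunit of the peripheral stalk of ATP synthase, and Atp5h, for another stalk subunit, were at 0 in all 4 libraries. Sdha, the flavoprotein of complex II, had 2, 4, 7 and 9 counts, and Sdhb, Sdhc and Sdhd had between 1 and 4 counts each over all libraries. A count at or near 0 on a row of this table thus does not show that a transcript was absent from the skin.

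The muscle isoforms of complex IV could not be followed. Cox7a1 and Cox8b had 0 counts in all 4 libraries and Cox6a2 had 1 count, in the control library of rat 2. The same libraries held 12034, 58005, 28999 and 13985 counts of Acta1, the actin of skeletal muscle, with the control libraries given first. Skeletal muscle transcripts were therefore abundant while these isoforms stood at or under the limit of a zero count. No ratio of a muscle isoform to its partner could be formed. Ucp1 and Cidea, defining genes of brown fat, which also uses Cox7a1 and Cox8b, were at 0 counts too. Of the 6 brown fat markers looked at, 3 had a count and 3 were at 0, the third being Cpt1b.

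Among the members that could be measured, the control ear of rat 1 was usually lowest and the control ear of rat 2 usually highest, with the AAV-Fgf7 ears between them. Summed over the 85 rows, CPM was 2793 in the control ear of rat 1, 3483 in the AAV-Fgf7 ear of rat 2, 3771 in the AAV-Fgf7 ear of rat 1 and 4415 in the control ear of rat 2. The controls thus formed the extremes and the groups overlapped. A few genes held much of these sums. Atp5g3 alone stood at 1033, 1165, 1405 and 1370 CPM in the same order of libraries, highest in the AAV-Fgf7 ear of rat 1. Of the 22 tested members, 13 were lowest in the control library of rat 1 and highest in that of rat 2, against 11.4% of all tested genes. Markers of skeletal muscle, 28 of 30 with a count and Casq1 and Tnnc2 at 0, summed to 18073, 20002, 39200 and 75241 CPM in the same order of libraries. Much of these sums was Acta1 alone, with 9137, 9683, 20480 and 38607 CPM. Of the 24 tested muscle markers, 15 were lowest in the control library of rat 1 and highest in that of rat 2. The complete order of the 4 libraries in the muscle sums was shared by 8 tested members (Atp5b, Atp5g1, Atp5k, Cox5a, Cyc1, Ndufs1, Ndufv1 and Uqcrfs1) and by 7.33% of tested genes. The part of muscle content in the levels of the members was not tested. In such bulk tissue, fewer cells of a type and less RNA per cell cannot be told apart.

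**Figure D2:**
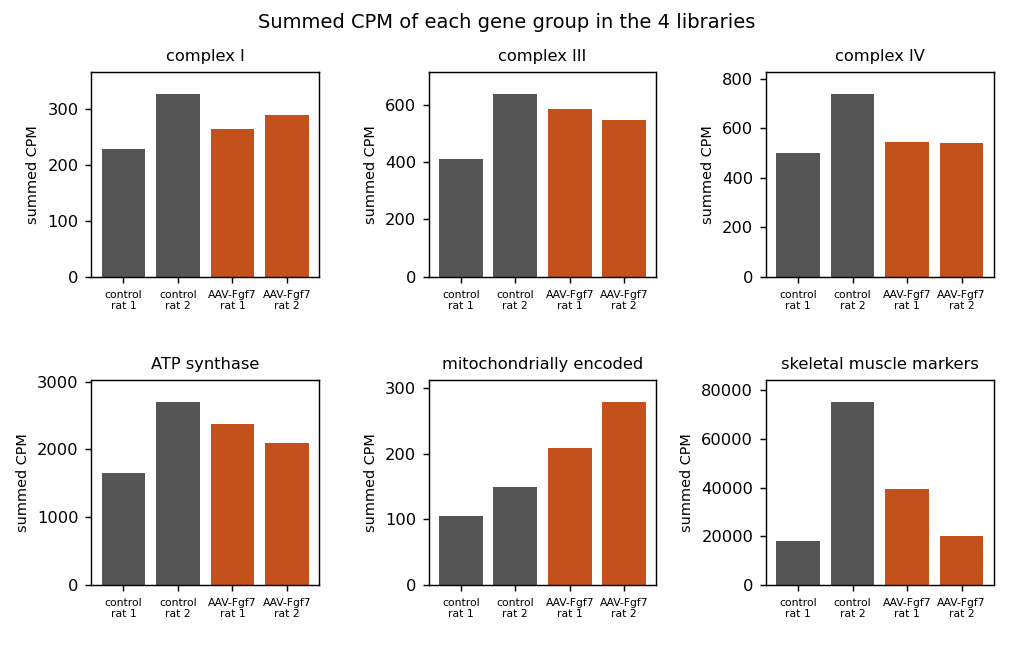
Bars give the summed CPM (vertical axis, starting at 0) of each gene group in each of the 4 libraries, grey for control virus and orange for AAV-Fgf7, with no error since each bar is 1 library. Nuclear-encoded complexes and muscle markers are highest in the control ear of rat 2, whereas the mitochondrially encoded genes are higher in both AAV-Fgf7 ears, at 209 and 280 CPM.

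Promoters of 3 of these members, all of them with matches, are shown because known regulators of respiratory genes bind short motifs there. NRF1 and the ETS factor GABP are activators of many nuclear genes for the respiratory chain. The 250 bases before the start of each gene were searched on both strands for GCGCANGCG, a core of the NRF1 site, and CCGGAAGT, an ETS site. RefSeq promoters of the rat assembly GRCr8 were found for 74 of the 84 symbols, and 16 of these (21.6%) held the NRF1 letters against 5.09% of all 33469 promoters of that length and 6.80% of protein-coding ones. The ETS letters were in 8 (10.8%), against 3.10% of all promoters and 3.95% of protein-coding ones. Of the 19 tested members with a promoter, 3 held the first motif and 4 the second, and 7 held either. Promoters of the abundant members Atp5g3, Atp5b and Cox5a held neither. A promoter with several matches, on 1 strand or both, was counted 1 time, and matches of the NRF1 letters on the 2 strands can overlap. Matches are given as a description of the letters and not of binding. Capitals mark the matches in the lines that follow, each written 5′ to 3′ on the strand of the gene.
Atp5k, listed in rat as Atp5me, plus strand, chr14:1464610-1464859: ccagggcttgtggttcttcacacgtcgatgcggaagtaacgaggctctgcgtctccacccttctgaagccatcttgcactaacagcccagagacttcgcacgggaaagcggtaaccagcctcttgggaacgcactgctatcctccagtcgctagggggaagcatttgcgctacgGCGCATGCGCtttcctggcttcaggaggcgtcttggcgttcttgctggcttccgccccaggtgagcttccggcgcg
Uqcrc1, plus strand, chr8:118467973-118468222: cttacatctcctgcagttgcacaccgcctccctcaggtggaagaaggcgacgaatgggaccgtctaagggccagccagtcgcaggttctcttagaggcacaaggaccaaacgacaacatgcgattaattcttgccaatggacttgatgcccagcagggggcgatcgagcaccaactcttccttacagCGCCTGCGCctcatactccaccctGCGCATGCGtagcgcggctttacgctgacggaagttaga
Cox8a, minus strand, chr1:213833624-213833873: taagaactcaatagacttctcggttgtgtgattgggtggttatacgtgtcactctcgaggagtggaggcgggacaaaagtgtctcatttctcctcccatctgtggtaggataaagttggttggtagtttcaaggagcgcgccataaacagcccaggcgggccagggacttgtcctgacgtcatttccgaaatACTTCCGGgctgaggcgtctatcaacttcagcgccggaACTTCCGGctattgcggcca

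ATP synthase genes held most counts of the set. On the authors' FPKM scale, which is per length of gene, Atp5g3 had the highest mean of the tested members at 559 FPKM. The lowest was Ndufs1 of complex I at 3.88. The step that placed rat reads on mouse rows is not stated. Ranks between genes are therefore of counted reads and may not follow transcript abundance. Atp5g3 encodes subunit c of the proton-driven ring, and its levels were 1033 and 1370.4 CPM with control virus, 1405 and 1165 CPM with AAV-Fgf7. The control ear of rat 1 was lowest and the groups overlapped. Atp5g1, which encodes the same mature subunit, stood at 60.0 and 128 CPM with control virus, 86.9 and 85.2 CPM with AAV-Fgf7. The remaining gene for that subunit, Atp5g2, had 0 counts, and the 3 genes are similar enough that reads may be split among them.

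The catalytic head of ATP synthase is formed by the alpha and beta subunits. Atp5b, the catalytic beta subunit, stood at 475 and 926 CPM with control virus, 695 and 641 CPM with AAV-Fgf7. Its group means were 701 ± 319 and 668 ± 38.0 CPM (SD, n = 2), so the spread lay almost wholly in the controls. Atp5a1, the alpha subunit, stood at 39.5 and 70.6 against 62.1 and 69.9 CPM, and it had the most positive log2 fold change of the complex at 0.26 (SE 0.35). Atp5f1, a peripheral stalk subunit, had the widest range as a fold among tested genes of the complex, with 28.1 and 178 CPM with control virus, 95.3 and 118 CPM with AAV-Fgf7. Atp5k, subunit e of the membrane part, stood at 12.1 and 24.6 against 19.8 and 15.2 CPM. All 6 tested genes of ATP synthase were lowest in the control ear of rat 1, as were 1636 of all 6370 tested genes. For all 6 the groups overlapped, against 71.9% of all tested genes.

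Complex III gave 4 tested rows of 9. Cyc1, the haem protein cytochrome c1, stood at 184 and 288 CPM with control virus, 278 and 253 CPM with AAV-Fgf7. Uqcrfs1, the Rieske iron-sulfur protein, stood at 88.1 and 136 against 117 and 116 CPM. The core proteins Uqcrc1 and Uqcrc2 stood at 50.1 and 77.9 against 79.8 and 56.1 CPM, and at 85.04 and 130.5 against 105 and 116 CPM. All 4 were lowest in the control ear of rat 1, as were 1636 of all 6370 tested genes. For all 4 the groups overlapped, against 71.9% of tested genes. Their log2 fold changes of AAV-Fgf7 over control ran from 0.04 for Uqcrc2 to 0.17 (SE 0.26) for Cyc1.

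Complex I gave 8 tested rows of 36, most with low counts. Ndufv1, the core subunit that takes electrons from NADH, stood at 56.9 and 99.2 CPM with control virus, 89.7 and 80.3 CPM with AAV-Fgf7, from raw counts of 75, 149, 127 and 116. Ndufs1, a core subunit that carries iron-sulfur clusters, stood at 24.3 and 41.9 against 32.5 and 29.1 CPM. Both were lowest in the control ear of rat 1 and highest in that of rat 2. Among accessory subunits, Ndufa8 stood at 30.4 and 49.3 against 22.6 and 40.2 CPM.

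Groups overlapped in 6 of the 8 tested rows of complex I, against 71.9% of all tested genes, and not in 2 accessory subunits. Ndufs4, needed for a stable complex, stood at 29.6 and 23.96 CPM with control virus, 30.4 and 33.9 CPM with AAV-Fgf7. Its log2 fold change was 0.26 (SE 0.32). Ndufb10 stood at 36.4 and 34.6 against 23.3 and 32.5 CPM, with a log2 fold change of -0.35 (SE 0.33). Both changes were about the size of their standard error. Leaving out 1 library moved them between 0.12 and 0.42 for Ndufs4 (lowest without the control library of rat 2, highest without that of rat 1) and between -0.61 and -0.12 for Ndufb10 (without the AAV-Fgf7 library of rat 2 and of rat 1). Ndufa13, also known as GRIM-19, had the most negative log2 fold change of the complex, -0.47 (SE 0.79), from raw counts of only 5, 13, 3 and 10. Ndufa6 and Ndufa7 lay between 12.9 and 21.3 CPM in every library.

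Complex IV gave 4 tested rows of the 15 outside the muscle isoforms. Cox5a, a subunit of the matrix side, had the highest counted level of these, with 423 and 615 CPM with control virus, 470.3 and 451 CPM with AAV-Fgf7. Cox8a, the widely expressed partner of Cox8b, stood at 47.1 and 64.6 against 52.3 and 67.2 CPM. Both overlapped between groups. Cox7a2, the partner of Cox7a1 outside striated muscle, stood at 18.2 and 18.0 CPM with control virus, 13.4 and 11.8 CPM with AAV-Fgf7, and so was lower in both AAV-Fgf7 libraries. Its log2 fold change was -0.52 (SE 0.39), from raw counts of 17 to 27.

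Cox4i2, the form of subunit 4 that is known from lung and is induced by low oxygen, had the largest log2 fold change of any tested member. Its levels were 12.9 and 39.9 CPM with control virus, 9.18 and 8.31 CPM with AAV-Fgf7, from raw counts of 17, 60, 13 and 12. Both AAV-Fgf7 libraries were below both controls, but the control ear of rat 2 stood apart from the other 3. The log2 fold change was -1.60 (SE 0.62), and the edgeR p was 0.0414 before and 0.9996 after adjustment. Without the control library of rat 2 the log2 fold change was -0.56, and the edgeR unadjusted p was 0.434. Leaving out instead the control library of rat 1 gave -2.18, with an edgeR p of 0.000804 before and 0.109 after adjustment. With the rat fitted as a replicate block, the unadjusted edgeR p was 0.0799.

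AAV-Fgf7 ears were compared with control ears to ask whether these genes differed when Fgf7 was delivered, and no member passed the adjusted threshold. By the edgeR quasi-likelihood test over 6370 genes, 0 of the 22 tested members were called at an adjusted p under 0.05, against 0.0% of all tested genes. The same test did not call the delivered Fgf7, so a call of 0 does not show that the members did not differ. At an unadjusted p under 0.05 there was 1 member, Cox4i2, against 2.32% of tested genes. DESeq2 likewise called 0 members, with 1 at an unadjusted p under 0.05. The median log2 fold change of the tested members was -0.04, beside -0.02 over all tested genes, with 10 positive and 12 negative. In the other filtered fits of all 4 libraries where it was taken, this median lay between -0.05 and 0.01. With no low-count filter, over 64 rows, the median was 0.05 by edgeR and 0.09 on log2(FPKM + 1). Medians by complex were -0.08 for complex I, 0.07 for complex III, -0.35 for complex IV and -0.01 for ATP synthase.

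**Figure D3:**
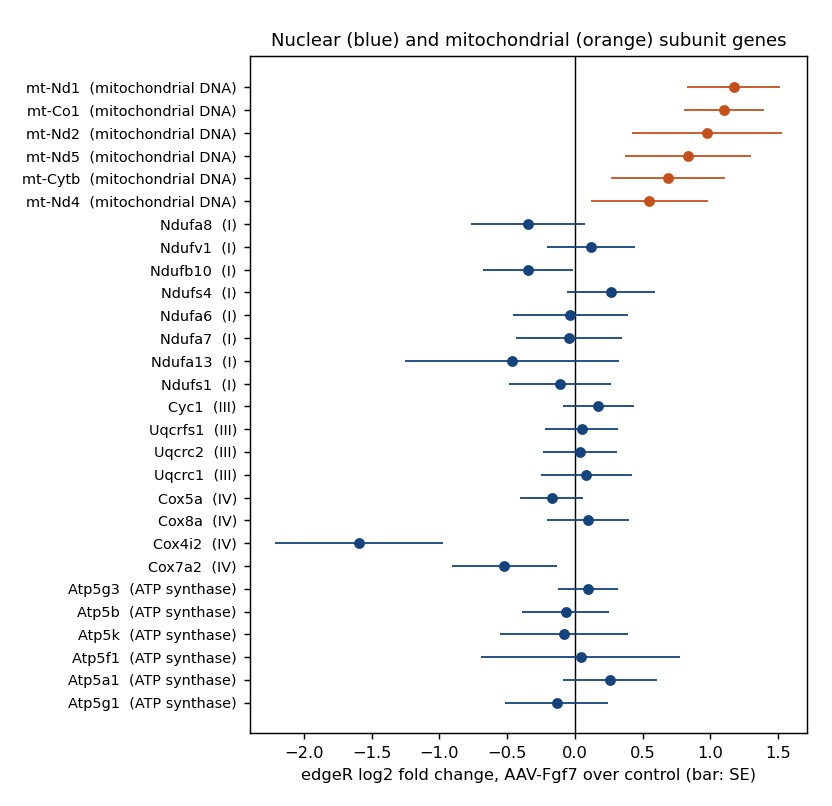
Points give the edgeR log2 fold change of AAV-Fgf7 over control virus (horizontal axis) and bars its standard error, for the 22 tested nuclear members (blue) and 6 mitochondrially encoded genes (orange). Nuclear members lie between -0.52 and 0.26 except Cox4i2 at -1.60, and the orange points lie between 0.55 and 1.17.

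Groups overlapped for 18 of the 22 tested members (81.8%), against 71.9% of all tested genes. Both AAV-Fgf7 libraries lay above both controls for 1 member, Ndufs4, against 14.8% of tested genes. They lay below both controls for 3 members, Ndufb10, Cox4i2 and Cox7a2, against 13.3%. These counts turned on which control was read. Without the control library of rat 2, 17 of the 22 members were higher in both AAV-Fgf7 ears (33.4% of tested genes) and the median log2 fold change was 0.36. Without the control library of rat 1, 18 members were lower in both AAV-Fgf7 ears (35.4% of tested genes) and the median was -0.33. In neither fit was a member called by edgeR.

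Between the ears of a rat, most members were higher with AAV-Fgf7 in rat 1 and lower with it in rat 2. In rat 1, 17 of 22 tested members were higher in the AAV-Fgf7 ear, against 50.2% of tested genes, and the median difference in log2 of (CPM + 1) was 0.36. In rat 2, 20 of 22 were lower in the AAV-Fgf7 ear, against 49.1%, and the median was -0.29. Both held for 15 members, against 29.2% of tested genes, among them all 6 genes of ATP synthase and all 4 of complex III. Ndufs4 was higher and Cox4i2, Cox7a2, Ndufa8, Ndufa13 and Ndufb10 were lower in the AAV-Fgf7 ear of both rats. Cox8a was higher in that ear of both rats, by 0.15 and 0.06. With the AAV-Fgf7 columns exchanged between the rats, the opposite pattern in the 2 rats held for 16 members and for 24.9% of tested genes. For the 13 members lowest in the control ear of rat 1 and highest in that of rat 2, this pattern holds under either pairing. The exchange therefore cannot tell which pairing is right, and the pattern largely restates the difference between the control ears. These directions are each from 1 pair of libraries and have no replicate check.

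**Figure D4:**
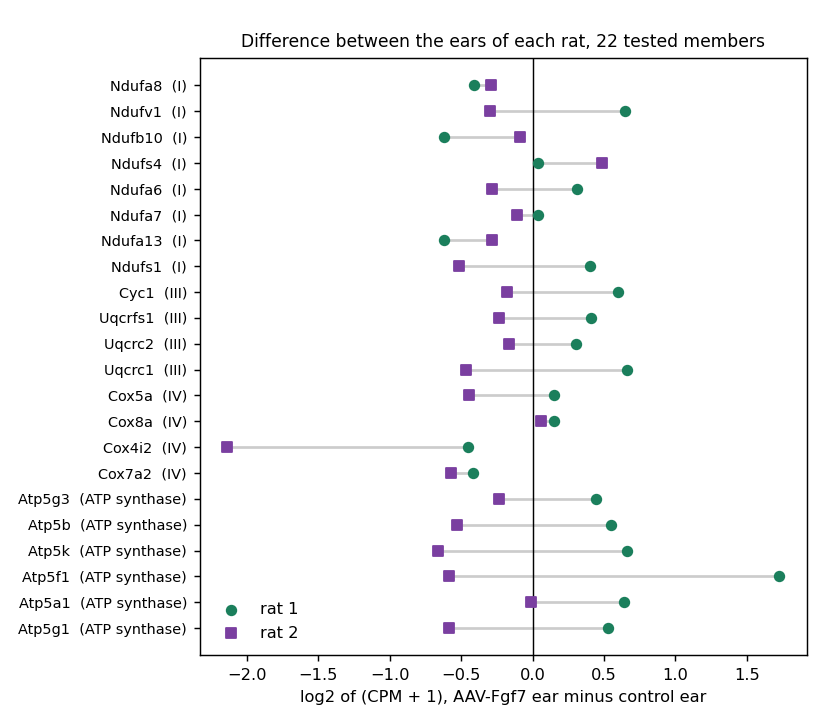
The horizontal axis gives the difference in log2 of (CPM + 1) between the AAV-Fgf7 ear and the control ear of rat 1 (green circles) and rat 2 (purple squares) for each of the 22 tested members, with the complex in brackets. Most circles lie right of 0 and most squares left of it, with Atp5f1 at 1.73 in rat 1 and Cox4i2 at -2.14 in rat 2 as the extremes.

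For 0 members were both libraries of 1 rat at least 4-fold above both of the other rat in CPM + 1, against 0.11% of tested genes.

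Subunit genes encoded in mitochondrial DNA summed to higher levels in AAV-Fgf7 ears, and 0 of them passed the test, against 0.0% of tested genes. Of 13 such genes 10 had a count and 6 were tested, and mt-Co3, mt-Atp6 and mt-Atp8 were at 0. Their sums were 106 and 149 CPM with control virus, 209 and 280 CPM with AAV-Fgf7, so the groups did not overlap. The raw counts behind these sums were only 139 and 224 with control virus, 296 and 404 with AAV-Fgf7. How rat reads were placed on these mouse rows is not stated, so the sums may not follow mitochondrial transcript levels. mt-Co1, the catalytic subunit of complex IV, stood at 38.7 and 52.6 against 84.0 and 112 CPM, with a log2 fold change of 1.10 (SE 0.30). mt-Nd1, a membrane subunit of complex I, stood at 14.4 and 18.6 against 38.8 and 36.0 CPM, with a log2 fold change of 1.17 (SE 0.34). The edgeR unadjusted p was 0.0100 for mt-Co1 and 0.0137 for mt-Nd1, and the adjusted p was 0.9996 for each. All 6 log2 fold changes were positive, with a median of 0.90, and for 4 of the 6 genes both AAV-Fgf7 libraries lay above both controls, against 14.8% of all tested genes. In rat 1 mt-Nd4 was not higher with AAV-Fgf7, at 16.9 CPM against 17.5 CPM with control virus. Whether this median differs from that of the nuclear members was not tested. Keratinocyte markers, all 12 with a count, also summed higher in AAV-Fgf7 ears, with 2528 and 2156 CPM with control virus, 3317 and 7009 CPM with AAV-Fgf7. Their part in the mitochondrial values was not tested.

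Other mitochondrial gene lists showed 0 called genes, against 0.0% of all tested genes. Of 18 genes of pyruvate dehydrogenase and the tricarboxylic acid cycle, which feed electrons to the chain, 13 were tested with a median log2 fold change of -0.17. In rat 1, 10 of the 13 were higher in the AAV-Fgf7 ear, against 50.2% of tested genes. In rat 2, 12 were lower in that ear, against 49.1%. Sums of the list were 1008 and 2343 CPM with control virus, 1463 and 1185 CPM with AAV-Fgf7, in the order of the nuclear members. Idh3g, a subunit of isocitrate dehydrogenase, differed by -0.71 (SE 0.40) on the log2 scale.

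Of the carriers that exchange ADP and ATP, Slc25a4, the carrier of muscle and heart, stood at 1867 and 4117 CPM with control virus, 2686 and 1696 CPM with AAV-Fgf7. Slc25a5, the form of dividing cells, stood at 1151 and 753 against 1149 and 1358 CPM. Both overlapped between groups, with log2 differences of -0.45 (SE 0.41) for Slc25a4 and 0.40 (SE 0.25) for Slc25a5, and a difference between the isoforms was not tested. Of the creatine kinases of mitochondria, muscle Ckmt2 stood at 25.8 and 143 against 107 and 17.3 CPM and the widely expressed Ckmt1 at 38.0 and 45.3 against 68.5 and 100.4 CPM. The log2 fold change of Ckmt1 was 1.02 (SE 0.31), and its edgeR adjusted p was 0.9996.

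Assembly factors, of which 8 of 48 were tested, had a median log2 fold change of 0.17. Acad9, which acts in assembly of complex I, stood at 82.0 and 61.2 CPM with control virus, 122 and 118 CPM with AAV-Fgf7. Its log2 fold change was 0.74 (SE 0.25, adjusted p = 0.9996 by edgeR). Fatty acid oxidation genes (5 of 18 tested), coenzyme Q synthesis genes (4 of 13) and mitochondrial ribosomal proteins (12 of 75) had medians of 0.16, -0.12 and 0.22. Regulators of mitochondrial genes (9 of 17 tested) had a median of -0.10. Among these, the coactivator gene Ppargc1a differed by -0.37 (SE 0.47) on the log2 scale. For the activator genes Nrf1 and Gabpa, whose motifs were searched in the promoters, the log2 differences were -0.27 (SE 0.45) and -0.65 (SE 0.43). The nuclear receptor genes Esrrg and Ppard had the lowest p of this list, with log2 differences of -1.06 (SE 0.53) and 0.94 (SE 0.47).

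Markers of other cell types in the ear also varied between libraries. With the control libraries first, hair follicle markers summed to 56.9, 1227, 3965 and 162 CPM and cartilage markers to 591, 2145, 1099 and 648 CPM. White fat markers summed to 329, 616, 388 and 358 CPM, with Adipoq, Cidec and Lipe at 0. Fibroblast markers summed to 34833, 40007, 40689 and 27743 CPM with Col6a1, Dcn and Lum at 0, and endothelial markers to 116, 144, 118 and 114 CPM. Macrophage markers summed to 386, 148, 206 and 282 CPM and red blood cell markers to 69.9, 45.3, 66.4 and 26.3 CPM. Brown fat markers summed to 35.7, 65.9, 56.5 and 26.3 CPM, with Ucp1, Cidea and Cpt1b at 0. Sums for muscle, cartilage, white fat, brown fat and endothelium were highest in the control ear of rat 2, as was the sum of the nuclear-encoded members, and those for hair follicle, fibroblasts, macrophages, red blood cells and keratinocytes were highest in other libraries.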

How the data were processed

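For 4 libraries of rat ear skin, the authors deposited raw counts and FPKM, which are counts per listed gene length and library. The build named in the submitters' processing notes is Rnor_6.0 (rn6). Aligner, counter and the mouse build behind the row identifiers were not given in the sources read. The FPKM were used to compare counted levels between genes, which may not follow transcript abundance, and the counts were used for all tests.

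Genes were filtered with filterByExpr, scaled by TMM and compared with edgeR 4.0.16 (quasi-likelihood, both directions) in R 4.3.3 across all 6370 genes kept, with Benjamini-Hochberg adjustment and a threshold of 0.05. Standard errors are the log2 fold change over the root of F. The script was tested on simulated data. DESeq2 1.42.0 and limma 3.58.1 were alternatives. With 2 libraries per group, p-values measure only the spread between these libraries, and counts are of reads without molecular identifiers. The common biological coefficient of variation was 29.1%. All library pairs differed by more than sampling noise (chi-square per degree of freedom of 6.92 or more).

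Both ears of a rat carry its number in the titles, which pairs the libraries by animal. Between the ears of a rat, deviations from the group mean had r = -0.29 across 6370 genes, which are not independent replicates. With 2 libraries per group, exchanging the AAV-Fgf7 columns would only reverse the sign of r. Chi-square per degree of freedom between the ears paired by title was 10.7 in rat 1 and 23.9 in rat 2. It was 6.92 between control rat 1 and AAV-Fgf7 rat 2, and 9.55 between control rat 2 and AAV-Fgf7 rat 1. Which pairing is right was not tested.

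The members and the gene lists were chosen with earlier results of these data known. Named members are the muscle isoforms and their partners and, in each complex, the most abundant and the most positive and negative ones among tested rows. They also include any member at an unadjusted p under 0.05, switching between rats or called in any fit. From other lists, genes of lowest p were taken, of which some are not reported here, and Nrf1, Gabpa, Ppargc1a, Slc25a4, Slc25a5, Ckmt2 and Acta1 were added after their values were seen, as were further tested or uncounted members. Lists covered assembly factors, mitochondrially encoded subunits, the tricarboxylic acid cycle, fatty acid oxidation, carriers, coenzyme Q synthesis, mitochondrial ribosome, regulators and cell type markers.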

Additional observations from a re-analysis of the deposited data

How the results depend on the processing

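The crossed replicate block and the exchange of AAV-Fgf7 columns between the rats were chosen after seeing the data. Under every alternative run, 0 members were called. Over all genes, edgeR called 0, but 3 without a low-count filter, DESeq2 called 4, and fits without 1 library called 0 to 19 genes. Fgf7 was past the threshold in the edgeR fit with no filter, in DESeq2 and without the control library of rat 1 (adjusted p = 0.00512, 3.47e-07 and 0.0180). With rat as a replicate block edgeR called 0 genes (75 at an unadjusted p under 0.05, against 148 without it), and with the crossed block 0 (301). The block changed no call. Its median for the members was 0.0051.

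Members with both AAV-Fgf7 libraries above both controls numbered 1, but 0 with library totals only, 6 of 64 rows with no filter (also 6 on FPKM with no filter), and 1 to 17 without 1 library. Those below both controls numbered 3, but 2 with library totals only, 5 with no filter (also 5 on FPKM) and 3 to 18 without 1 library. The members' median log2 fold change ranged from -0.33 to 0.36 without 1 library. For Atp5b it was -0.07, with 0.00274 by limma-voom, 0.00309 and 0.00357 on log2(FPKM + 1) and log2(FPKM + 0.1), 0.00309 on FPKM with no filter, 0.00773 with rat as a replicate block and 0.00611 with the crossed block. Without 1 library, log2 fold changes ranged from -0.47 to 0.49 for Atp5b, -0.10 to 0.74 for Atp5a1, -0.58 to 0.52 for Atp5g1, -0.093 to 0.32 for Atp5g3, -0.49 to 0.52 for Atp5k, -0.42 to 0.12 for Cox5a, -0.11 to 0.34 for Cox8a, -0.11 to 0.53 for Cyc1, -1.53 to 0.25 for Ndufa13, -0.82 to 0.050 for Ndufa8, -0.61 to -0.12 for Ndufb10, 0.12 to 0.42 for Ndufs4, -2.18 to -0.56 for Cox4i2, -0.22 to 0.58 for Ndufv1, -0.20 to 0.44 for Uqcrc1 and -0.23 to 0.40 for Uqcrfs1. The causes were not tested. These fits assume that the lone library of a group varies as the other group does. No ratio of muscle isoform to partner could be formed from raw counts either. At 1299136 to 1601321 counts a library, 42 of the 85 rows had too few counts to test and 21 had 0.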
